A study of Mus musculus with 4 samples.

Results

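The genes described here are 10 members of the NF-kB system: the subunit genes Rela, Nfkb1, Nfkb2, Relb and Rel, the inhibitor genes Nfkbia, Nfkbiz and Tnfaip3, and the cIAP genes Birc2 and Birc3. They were chosen by name from the 21900 protein-coding genes of the RefSeq table, with earlier results of these data known. Lung metastases of 4T1, a mouse mammary tumour cell line, in the BALB/c strain were profiled by ChIP-seq, in which DNA bound by an antibody's target is sequenced. The antibody was raised against DNMT3B, a DNA methyltransferase, in 2 libraries, and 2 input libraries had no antibody. Both kinds carry the lung labels 3 and 5. The labels do not say whether these came from separate mice, how the metastases were separated from host lung, or how tumour and host chromatin were told apart. The data were 2 lists for the whole series: 1705 distinct narrow regions called by MACS and 8242 broad islands called by SICER. Neither list gives a value per library, a height or a read count, so depth is unknown, no spread between libraries exists and nothing here was tested. The lists hold no expression, so the labelled cell type was not checked against markers.

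NF-kB transcription factors are dimers of REL-family proteins that IkB proteins hold inactive in the cytoplasm. Signals from TNF, interleukin-1 or Toll-like receptors activate a kinase complex that removes the IkB and frees the dimer to enter the nucleus, where it switches on its own inhibitors among other targets. The cIAP proteins are ubiquitin ligases that pass on the TNF signal and hold a second, slower branch in check. DNMT3B methylates cytosine in CpG dinucleotides, so the CpG content of a promoter sets how many sites the enzyme could act on there.

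The promoters of 7 members were found in the RefSeq table of build GRCm38.p6. Nfkb1, Relb and Nfkbiz had no entry. For genes with several start sites the most upstream one is used unless stated. The 6 sequences printed were chosen for their calls. Rela and Birc2 had a narrow region just upstream, Birc3 one in an intron, Nfkbia an island across its start, Tnfaip3 a call of each kind, and Rel neither. Each is the 250 bases before the start, 5′ to 3′ in the direction of the gene, with CpG dinucleotides in capitals.
Rela promoter, chr19:5637291-5637540, plus strand: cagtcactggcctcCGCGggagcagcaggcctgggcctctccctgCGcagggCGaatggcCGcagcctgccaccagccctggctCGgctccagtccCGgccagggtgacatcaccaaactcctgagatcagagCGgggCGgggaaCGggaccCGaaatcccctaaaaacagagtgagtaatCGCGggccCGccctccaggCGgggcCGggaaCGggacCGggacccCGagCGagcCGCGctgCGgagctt
Birc2 promoter, chr9:7837058-7837307, minus strand: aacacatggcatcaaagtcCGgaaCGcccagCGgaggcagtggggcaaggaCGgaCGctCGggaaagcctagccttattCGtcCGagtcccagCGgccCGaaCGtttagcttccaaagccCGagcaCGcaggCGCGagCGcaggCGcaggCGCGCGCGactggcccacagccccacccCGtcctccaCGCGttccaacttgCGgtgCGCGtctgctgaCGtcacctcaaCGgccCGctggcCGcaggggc
Birc3 promoter, chr9:7873171-7873420, minus strand: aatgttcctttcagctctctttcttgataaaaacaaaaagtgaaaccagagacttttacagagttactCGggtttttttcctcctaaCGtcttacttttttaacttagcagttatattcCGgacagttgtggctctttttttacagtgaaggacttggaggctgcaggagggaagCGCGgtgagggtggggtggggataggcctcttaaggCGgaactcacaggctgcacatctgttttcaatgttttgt
Nfkbia promoter, chr12:55492648-55492897, minus strand: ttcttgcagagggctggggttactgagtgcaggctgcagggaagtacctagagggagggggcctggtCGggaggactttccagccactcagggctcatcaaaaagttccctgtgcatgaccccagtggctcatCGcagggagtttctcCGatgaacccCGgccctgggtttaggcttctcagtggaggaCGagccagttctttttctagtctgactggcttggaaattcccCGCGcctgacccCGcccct
Tnfaip3 promoter, chr10:19015411-19015660, minus strand: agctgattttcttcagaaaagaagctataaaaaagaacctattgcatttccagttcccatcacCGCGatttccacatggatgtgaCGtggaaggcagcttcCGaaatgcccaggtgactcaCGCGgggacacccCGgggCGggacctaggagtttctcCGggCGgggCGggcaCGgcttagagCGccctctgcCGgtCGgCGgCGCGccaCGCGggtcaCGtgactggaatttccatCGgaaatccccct
Rel promoter, chr11:23770970-23771219, minus strand: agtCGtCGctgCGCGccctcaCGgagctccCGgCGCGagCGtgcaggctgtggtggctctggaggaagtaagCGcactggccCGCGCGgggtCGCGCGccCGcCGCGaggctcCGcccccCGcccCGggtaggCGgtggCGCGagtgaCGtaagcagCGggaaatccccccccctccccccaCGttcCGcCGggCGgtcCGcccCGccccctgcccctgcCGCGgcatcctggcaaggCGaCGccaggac

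Of the 10 members, 5 had a narrow region (Rela, Nfkbiz, Tnfaip3, Birc2 and Birc3), where 6.14% of all protein-coding genes did. With regions no farther than 5 kb upstream the same 5 members were named (5.91% of protein-coding genes), and with regions that overlap the gene 3 were (Nfkbiz, Tnfaip3 and Birc3; 5.04%). By the gene column of the island list, 4 had a broad island (Nfkb1, Nfkb2, Nfkbia and Tnfaip3), where 17.2% of protein-coding genes did. Tnfaip3 had both kinds of call, as did 2.46% of protein-coding genes. Relb and Rel had neither, the state of 79.1% of protein-coding genes. By role, 1 of the 5 subunit genes had a narrow region and 2 a paired island. Of the 3 inhibitor genes, 2 had a narrow region and 2 an island. Both cIAP genes had a narrow region and neither had an island. With 10 genes and 1 list of each kind, these counts describe the lists and were not compared by a test. The members were chosen with these calls known, so shares above those of all genes cannot be read as a trait of the pathway.

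Positions are printed as deposited. The submitters' processing notes name build mm10, which is the assembly GRCm38, but gene positions in the lists often differ from it. Where a member's deposited position could be compared with the GRCm38 table, Rela differed by 48 bp and Birc2 by 73 bp. The narrow regions of Nfkbiz and Birc3 lay inside the GRCm38 gene. The differences were 74.2 kb for Nfkb2, 280 kb for Tnfaip3, 337 kb for Nfkb1 and 1100 kb for Nfkbia. The list neighbours of Rel differed by about 100 kb and those of Relb by 585 kb. Rela, Birc2, Nfkbiz and Birc3 could be placed only through their narrow regions. Nfkb1, Nfkb2, Nfkbia and Tnfaip3 were placed through the transcript paired with their island. A match of positions could therefore be seen only at genes with such a call or an island. Among all protein-coding genes with an island, 143 of 285 (50.2%) had a narrow region where positions lay within 1 kb of GRCm38, and 395 of 3486 (11.3%) where they did not. What part this agreement of positions has in which members had a narrow region was not tested. Whether the narrow regions and the islands stand in the same build as the gene positions used to name them is not known. If they do not, the genes named, the distances, the places along a gene and the absence of a call could be wrong. This holds at genes whose positions differ, which include Nfkb1, Nfkb2, Nfkbia and Tnfaip3. Whether both lists share a build is also not known, so overlaps and distances between narrow regions and islands carry the same limit.

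Rela encodes the subunit with the strong activation domain of the classical dimer. Its narrow region on chromosome 19 ran from 5637160 to 5637330. The deposited distance put it 160 bp upstream of the gene, so it spanned 330 to 160 bp before the start. Of all narrow regions, 275 (16.1%) stood upstream of a gene within 1 kb of it. The start that this distance implies lay 51 bp from the start in the RefSeq promoter table. No island was paired with Rela, yet its narrow region lay in one, as did 30.6% of all narrow regions. That island, from 5635400 to 5645999, was paired with Sipa1, a neighbouring gene for a Rap GTPase-activating protein, which it did not reach by 5185 bp. Measured from the implied start of Rela, it reached from 2090 bp upstream to 8509 bp downstream. A second island paired with Sipa1, from 5646600 to 5649999, covered 9110 to 12509 bp from the start. Rela is 10693 bp long in RefSeq, so the pair of islands covered its start, most of its body and its end. The gene column thus left out a member with islands over it, because each island was given a single gene. Counted by overlap in place of the gene column, 5 members had an island and 2, Rela and Tnfaip3, had both kinds of call.

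Nfkb1 encodes a precursor that is cut to a DNA-binding partner of the Rela protein. It had no narrow region and a single island, on chromosome 3 from 135251400 to 135260199. The island was 8800 bp wide, wider than 81.3% of all islands, whose median width was 4800 bp. The deposited transcript was 106893 bp long and the island lay wholly inside it, from 94312 to 103111 bp past the start. This is 88.2 to 96.5% of the way along the gene, ending 3782 bp short of the gene end. It covered 8.23% of the transcript. Of all islands, 46.9% lay inside their gene. No other island and no narrow region lay within 100 kb of the Nfkb1 start, and the nearest narrow region was 978 kb away.

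Nfkb2 encodes the precursor used by the slower branch. Its wider island covered the start and most of the deposited transcript, whereas that of Nfkb1 lay near the gene end. On chromosome 19 an island of 9400 bp, from 46376400 to 46385799, began 3784 bp upstream of the start and ended 781 bp short of the gene end. It covered 87.8% of the 6396 bp transcript, where the median over 3822 paired transcripts was 16.2% and the upper quartile 45.3%. RefSeq gives the gene a length of 11407 bp, so the start, the end and the share covered are those of the deposited transcript. Islands that covered the start but not the end made up 12.3% of all islands. A second island paired with Nfkb2, from 46392800 to 46395799, did not touch it. This one lay 6220 to 9219 bp past the gene end, inside the body of the adjacent gene Psd as the island list places it. Of all islands, 28.0% did not touch the gene they were paired with.

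Neither list named Relb, the partner of the Nfkb2 product, nor Rel, the subunit best known from lymphocytes. No listed synonym of any member was found in either list. The surroundings of the 2 genes differed. Relb stood between Zfp296 and Clptm1, both with islands. Clptm1 was its next protein-coding gene, 2.14 kb away in RefSeq, and 1 gene lay between Relb and Zfp296. Between the highest deposited position of Zfp296 and the lowest of Clptm1 lay an interval of 50923 bp. Only 1 island lay wholly inside it, from 20174200 to 20176999 on chromosome 7. Its highest position was 10994 bp past Zfp296, whereas the lowest position of Relb is 25561 bp past Zfp296 in RefSeq. These positions are read along the chromosome, so they do not tell the start of Relb from its end. The nearest listed island on that side therefore stopped short of Relb if the spacing of the genes is the same in both builds. The 2 islands paired with Clptm1 did not lie wholly inside the interval, and how far they reach towards Relb was not examined. Around Rel calls were sparse. The nearest protein-coding genes with a call were Aftph, 3000 kb away with 21 genes between, and Ccdc88a, 5600 kb away with 9 genes between. Between the highest deposited position of Aftph and the lowest of Ccdc88a, 8630 kb, no island and 1 narrow region lay wholly inside. The list names this region for Aftph.

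**Figure D1:**
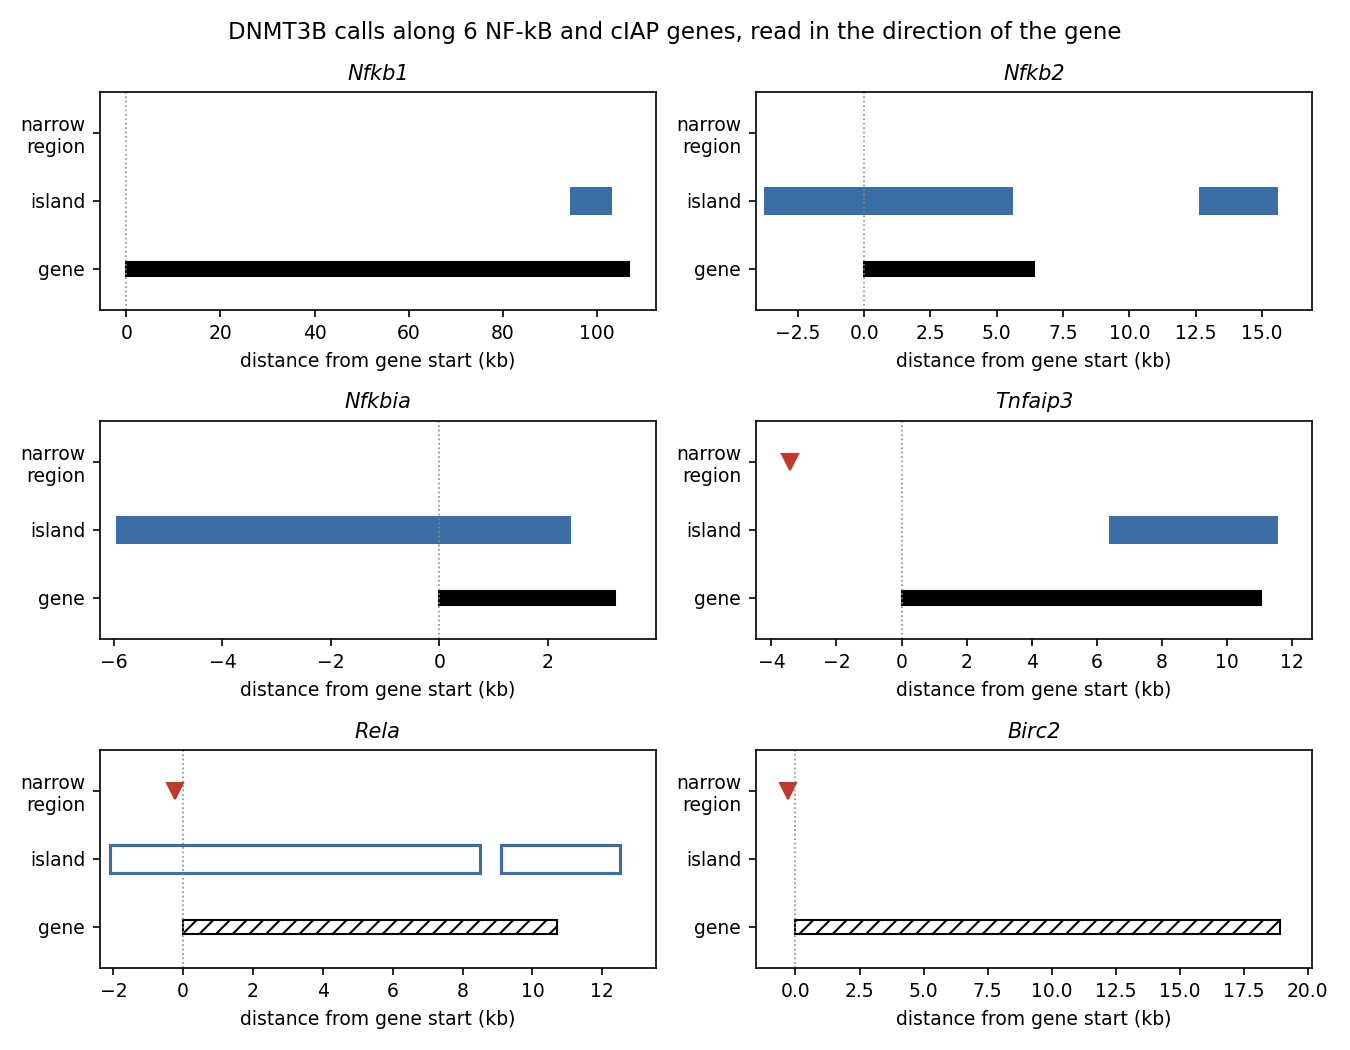
Calls along 6 genes, each drawn from its start (0, dotted line) in its own direction, with distance in kb on the x axis. Filled blue bars are islands paired with the gene, open blue bars are islands paired with Sipa1, red triangles are narrow regions, black bars are deposited transcripts and hatched bars have their length from RefSeq. The island of Nfkb1 lies near the gene end, those of Nfkb2 and Nfkbia cross the start, and the narrow regions of Rela and Birc2 lie 160 and 172 bp upstream.

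Among the inhibitors, Nfkbia encodes IkB-alpha, the classical inhibitor that NF-kB itself induces. It had no narrow region. Its island on chromosome 12, from 56591200 to 56599599, was 8400 bp wide and crossed the gene start. It reached 5965 bp upstream and 2434 bp into the gene, ending 805 bp before the gene end, and covered 75.2% of the 3239 bp transcript. Nfkbia and Nfkb2 were the members with a paired island within 2 kb of the start, and 6.8% of protein-coding genes had one. No other island lay within 100 kb of Nfkbia.

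Nfkbiz encodes an atypical nuclear IkB protein that works with NF-kB dimers at a subset of targets. It had 2 narrow regions, the most of any member, on chromosome 16 from 55821800 to 55821900 and from 55822000 to 55822200. They were 100 bp apart, which is the step to which these positions are rounded, so whether they are separate stretches is uncertain. Both were described as contained within Nfkbiz and as in an intron of it, wording shared by 1.7% of all narrow regions. The nearest island was over 2640 kb away.

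Tnfaip3 encodes A20, a ubiquitin-editing enzyme that ends NF-kB signalling. Its island, on chromosome 10 from 18720200 to 18725399, was 5200 bp wide and covered the gene end. It ran from 6370 bp past the start of the deposited transcript to 516 bp beyond its end and covered 42.4% of it. Islands over the end but not the start made up 9.67% of all islands. The narrow region at 18735200 had equal start and end at a step of 100 bp and was described as contained within Tnfaip3. It lay 3431 bp upstream of the transcript used in the island list, so the lists used different transcripts. In RefSeq the 2 starts of Tnfaip3 are 3447 bp apart, so the region lay, within its rounding, at the start of the longer transcript if that spacing is the same in the lists. The narrow region and the island were 9801 bp apart, so the calls of the member with both did not meet.

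The cIAP genes Birc2 and Birc3 lie next to each other on chromosome 9 and encode cIAP1 and cIAP2. The narrow region of Birc2, from 7837230 to 7837470, lay 172 bp upstream by the deposited distance and so spanned 412 to 172 bp before the start. The implied start was 1 bp from that in the promoter table. The narrow region of Birc3, from 7872790 to 7872820, was 30 bp wide and was described only as in an intron, the wording of 25.7% of all narrow regions. The promoter sequence printed for Birc3, on the minus strand, meets the gene start at 7873171 in GRCm38. If the region is in that build, it lay close inside this start. The 2 regions were 35.3 kb apart. Their widths are known to 10 bp, as is that of Rela, at 170 bp. No island lay within 2490 kb of either gene.

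The narrow list repeats many regions on identical lines. The Rela region stood on 2 lines, each Nfkbiz region on 4, that of Birc2 on 3, and those of Birc3 and Tnfaip3 on 1 each. Of all regions, 50.6% stood on 1 line and 8.09% on 4. What the number of lines stands for is stated nowhere in the sources, and each region was counted once.

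The surroundings of the members ranged from dense to empty. Within 100 kb of the Rela start there were 14 islands and 13 narrow regions. Of 3771 protein-coding genes with an island, 92.1% had fewer islands and 99.9% fewer narrow regions within that distance. Nfkb2, on the same chromosome, had 6 islands and 1 narrow region, against medians of 5 islands and 0 narrow regions over those genes. Nfkb1, Nfkbia and Tnfaip3 had 1 island each within 100 kb, their own, and 2.81% of the genes with an island had fewer. Birc2 had 3 narrow regions, Birc3 2 and Nfkbiz 3 within 100 kb, their own included, and none of these genes had an island in reach. The regions of Birc2 and Birc3 were each counted in both windows. Every one of the comparison genes has an island by choice, so they are no measure of what is usual for a gene without one.

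**Figure D2:**
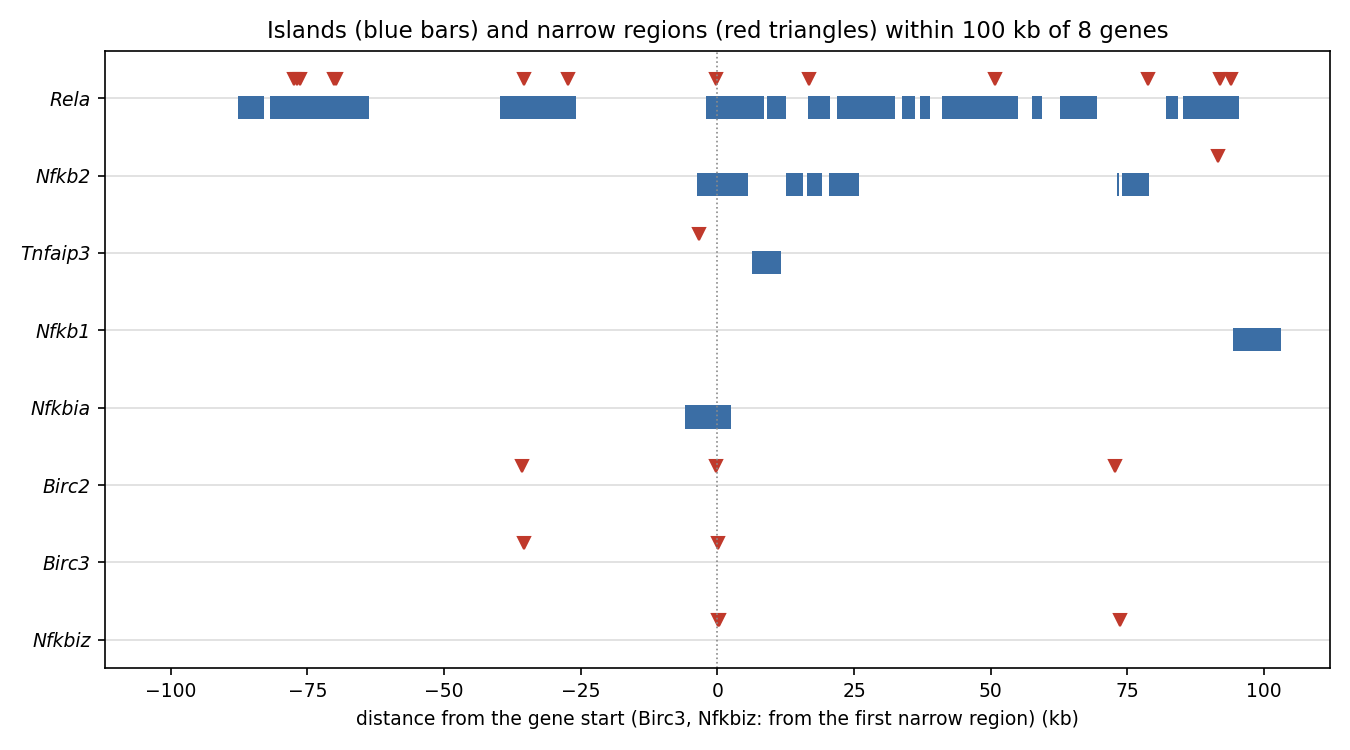
Islands (blue bars) and narrow regions (red triangles) within 100 kb of 8 members, with distance in kb from the gene start on the x axis, or from the first narrow region for Birc3 and Nfkbiz, whose starts the lists do not give. Genes with a known strand are drawn in their own direction. Rela has 14 islands and 13 narrow regions, while Birc2, Birc3 and Nfkbiz have no island.

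In the full 300 base windows, which reach 50 bases past the start, the number of CpG dinucleotides was 42 for Rel, 34 for Birc2, 31 for Rela, 25 for Nfkb2, 22 for Tnfaip3, 15 for Nfkbia and 7 for Birc3. The median over all 32851 windows was 7, with an upper quartile of 20, and over windows of protein-coding genes it was 13. So 6 of the 7 members lay above the median of all windows, and Birc3 lay at it and below that of protein-coding genes. The ratio of observed to expected CpG, which allows for base composition, was 1.01 for Birc2, 0.996 for Rel, 0.914 for Tnfaip3, 0.813 for Rela, 0.778 for Nfkb2, 0.539 for Nfkbia and 0.516 for Birc3. Its median was 0.384 over all windows and 0.567 over windows of protein-coding genes, with upper quartiles of 0.75 and 0.827. Nfkbia and Birc3 thus lay below the median of protein-coding genes, and Birc2, Rel and Tnfaip3 lay above their upper quartile. Calls and CpG content did not run in 1 order. Rel had the most CpG and no call, Birc2 and Rela had many and a narrow region, and Birc3 had few and a narrow region. The windows were set by gene starts and not by the calls. If both are in the same build, the Rela and Birc2 regions lay only partly in their windows. The Birc3 region then lay outside its own. The window at the start of the shorter Tnfaip3 transcript held 6 CpG, against 22 at the start of the longer one. The narrow region lay near the start of the longer one if the lists space the starts as RefSeq does and share a build. Methylation itself was not measured.

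Binding sites of NF-kB itself were looked for by the kB consensus of 10 bases on both strands, with matches that share bases counted once. A match stood in the promoter window of 4 of the 7 members (Nfkb2, Rel, Nfkbia and Tnfaip3), and in 8.46% of all windows. Nfkbia had GGGAATTTCC on the opposite strand, 29 to 20 bases before the start. Rel had GGGAAATCCC from 92 to 83 bases before the start. Tnfaip3 had 2 places, among them GGGGATTTCC on the opposite strand from 12 to 3 bases before the start of the longer transcript, and Nfkb2 had 2, among them GGGAATTCCC from 39 to 30 bases before its start. Windows with at least 2 places made up 0.521% of all windows. The windows of Rela, Birc2 and Birc3, the members with a narrow region and no paired island that have a window, held no match. Most windows hold none, and Tnfaip3 with its 2 places had a narrow region too. A match is a description of the letters and no sign of binding.

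**Figure D3:**
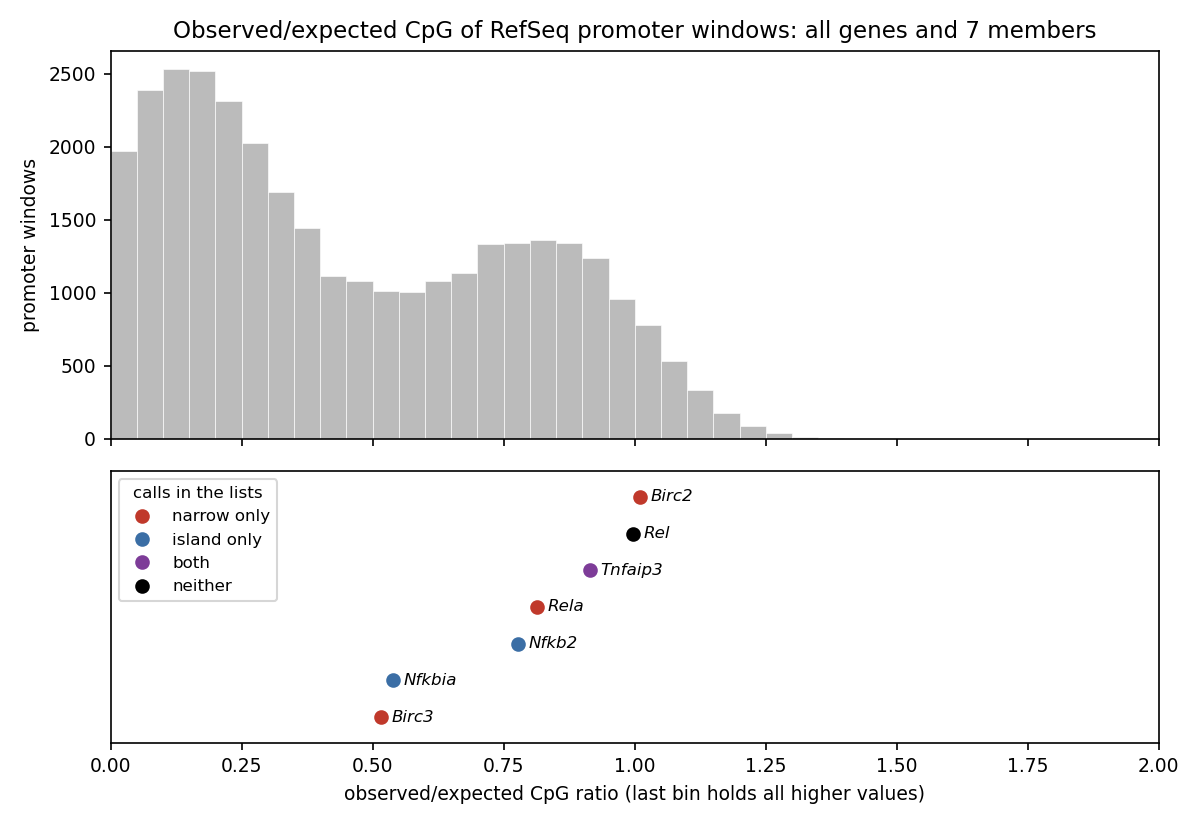
Observed to expected CpG ratio (x axis) of all 32851 RefSeq promoter windows, as the number of windows per bin of the ratio (upper panel, grey), and of the most upstream window of 7 members (lower panel, points coloured by their calls). Members run from 0.516 for Birc3 to 1.01 for Birc2, against a median of 0.384 over all windows and 0.567 over those of protein-coding genes.

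Other genes of the pathway were taken from 5 lists with 98 genes in all. A narrow region was named for 7 of them (7.14%, where 6.14% of protein-coding genes had one) and an island for 27 (27.6%, where 17.2% had one). Both kinds were named for 2 and neither for 66. The share with a narrow region was thus near that of all genes, while the share with an island was above it, and neither difference was tested. The lists were chosen with earlier results of these data known, and some counted islands did not touch their gene. Within 2 kb of the start, 13 of the 98 genes had an island, where 6.8% of protein-coding genes did.

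Among 19 receptors and ligands none had a narrow region and 5 had an island. Ltbr, the lymphotoxin receptor that feeds the slower branch, had 3 islands of 16.4 kb together, of which one from 125261600 to 125265799 on chromosome 6 crossed the gene start. The island of Il1r1, an interleukin-1 receptor gene, crossed the start from 2830 bp upstream. That of the lymphotoxin gene Ltb, from 35331000 to 35333799 on chromosome 17, covered the whole gene. The islands of the TNF receptor genes Tnfrsf1a and Tnfrsf1b lay inside them.

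Among 28 adaptors and kinases, 2 had a narrow region and 8 an island. Map3k14, the NIK kinase gene whose protein the cIAPs keep low, had 8 islands of 52.8 kb together on chromosome 11, from 103076800 to 103135199. One crossed its start, another its end, and 5 lay inside. Ikbkb, the gene of a catalytic IkB kinase subunit, had 2 islands inside it with 18.0 kb together. Traf2 and Traf3, adaptor genes whose proteins bind the cIAPs, had 2 and 1 inside. The island of the death-domain adaptor gene Fadd covered the whole gene, and those paired with Traf1 and Rbck1 did not touch them. The narrow regions were in Bcl10, at 145588000 on chromosome 3 in an intron, and across part of Sharpin, from 76181500 to 76181700 on chromosome 15, which lay in an island paired with another gene. These last 2 genes were chosen after their values were seen.

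Of 15 further inhibitors and deubiquitinases, none had a narrow region and 6 (40.0%) had an island. Tnip1, whose protein partners A20, had 4 islands of 26.6 kb together, with one across the start. Nfkbie, which encodes IkB-epsilon, had 3 islands of 12.0 kb together, with one across the start from 1464 bp upstream. The island of Zc3h12a, an RNase gene of the NF-kB feedback, crossed its start, that of Bcl3, a nuclear IkB gene, lay inside it, that of N4bp1 crossed its end, and that paired with Otulin did not touch it. Among the 8 other genes with BIR domains, the domain that names the IAP family, none had an island and Birc5, the survivin gene, had a narrow region in an intron at 117711000 on chromosome 11, inside an island paired with another gene.

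Of 28 target genes, 4 had a narrow region and 8 an island. Gadd45b and Mmp9 had both. The narrow region of the stress gene Gadd45b, from 80392800 to 80393000 on chromosome 10, overlapped the gene in part and lay in an island, while its paired island lay downstream. That of the gelatinase gene Mmp9 lay 4650 bp downstream of the gene, in the second of its 2 islands, while the first crossed the start. Junb had a narrow region 1752 bp upstream, in an island paired with another gene, and Ier3 one contained within it, from 35959000 to 35959100 on chromosome 17, outside islands. Both of these were chosen after their values were seen. Lif, a cytokine gene of the IL6 family, had the most sequence in paired islands of the target list, 4 islands of 62.0 kb together. Much of it lay outside the gene. One of these islands, from 4166800 to 4212599 on chromosome 11, ran on past the transcript end at 4172517, and another lay wholly upstream. Irf1 had 3 islands and Myc had 1 that covered the whole gene. Ccnd1, Bcl2l1 and Nos2 had 2 each.

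**Figure D4:**
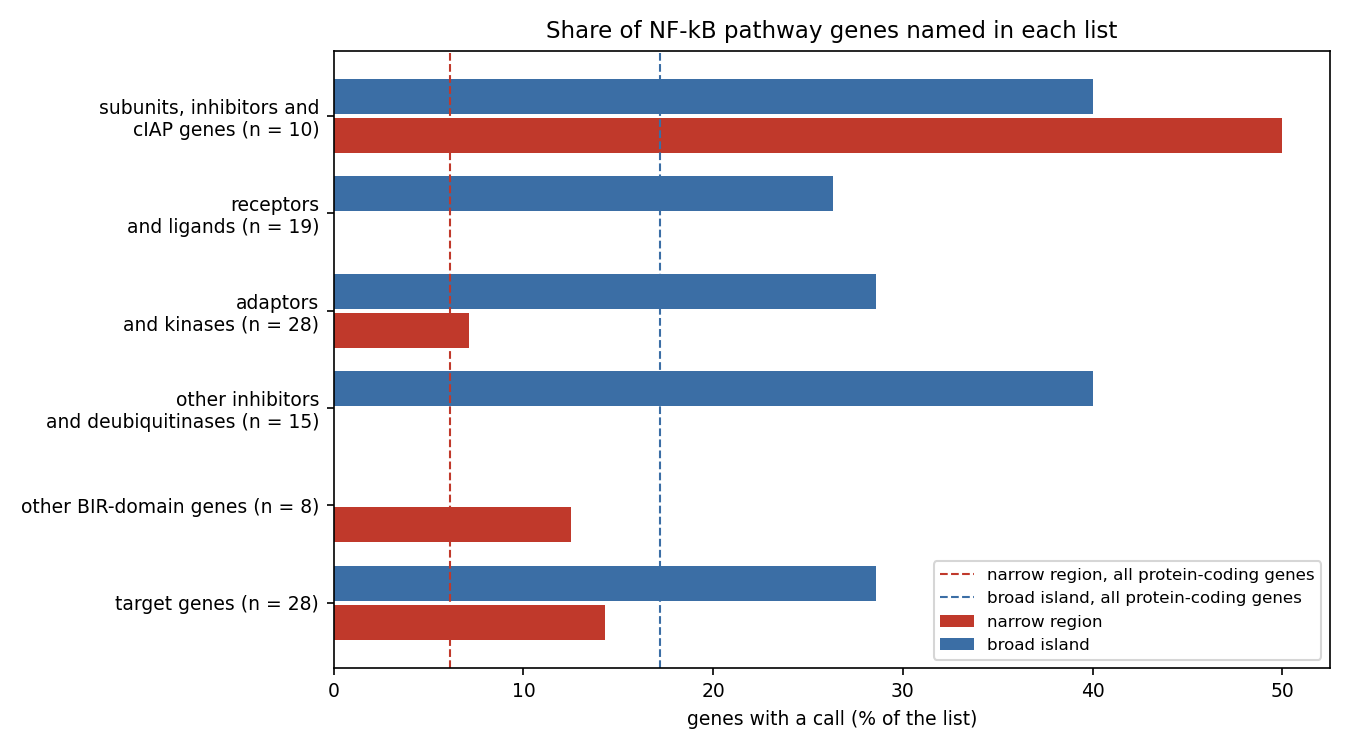
Share of genes with a narrow region (red bars) or a broad island (blue bars), in % on the x axis, for the 10 members and 5 lists of other pathway genes, with the number of genes in parentheses. Dashed lines are the shares over all protein-coding genes, 6.14% and 17.2%. Of the 6 groups plotted, the members have the highest share with a narrow region, 5 of 10, and share the highest with an island, 40.0%, with the other inhibitors; the members were chosen with these calls known.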

How the data were processed

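DNMT3B ChIP and input libraries of 4T1 lung metastases were aligned with Bowtie2 (version 2.10) and called with MACS (version 1.4) and SICER on mm10, per the submitters' processing notes. The deposited MACS list is named for MACS2. The name of the island list speaks of a top 20 without saying of what, so a gene without a listed island may have had one that was not kept. The deposited lists give positions and distances in bp, with no count, fold or score. The pooling of libraries before calling is not stated in the sources. Identical lines of the MACS list (4304) were counted once (1705 regions). Its positions carry 6 significant digits, and an end written as a question mark (2 lines) was set to the start. In all 8242 SICER lines the overlap length equalled that with the paired gene extended by 10 kb. Gene names were matched to RefSeq (GRCm38.p6) by transcript, symbol or unique synonym, for 1703 MACS regions and 8238 islands. A member had a narrow region if named in either gene column at any distance, and an island if named in the gene column. An island was over a member if they shared 1 bp. Members and lists were chosen with earlier results of these data known. The text names all members, pathway genes with a call (up to 8 per list by number of calls, then island bp, and 4 more with a narrow region chosen after their values were seen), genes paired with islands over members, and called neighbours of members with neither. One pathway gene with an island is counted but not reported here by name. Where the list gives no transcript, gene starts follow from deposited distances. Scripts (Python 3.11.15, pandas 2.3.3) were tested on simulated intervals and sequences. Alternative distances and overlaps are in the closing section.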

Additional observations from a re-analysis of the deposited data

How the results depend on the processing

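Narrow regions were named for 5 members at any distance, for 5 with overlap or up to 5 kb upstream, and for 3 with overlap alone, which leaves out Rela and Birc2. Islands were paired with 4 members, and also with 4 when required over the transcript, by midpoint, or at the median width or more. With islands required within 2 kb of the start 2 remained, Nfkb2 and Nfkbia, and of the pathway genes 13 in place of 27. Counting any island over the gene gave 5 members with an island and, in an alternative chosen after seeing the data, 2 with both calls in place of 1. The members with neither stayed at 2. Relb and Rel have no position in the lists, so the count of any island over the gene could not include them. One narrow region lay in an island with 1 shared bp, with 50% of the region, and after widening by the rounding step. No paired analysis was possible because regions come without values for single libraries, and no replicate could be dropped in turn.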
